A study of Homo sapiens with 6 samples.

Results

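The cholesterol and fatty acid synthesis genes described here were the 35 genes of the sterol regulatory element-binding protein (SREBP) pathway that a fixed list named, matched by gene symbol to the deposited table of 60546 gene identifiers. Each of the 35 had 1 entry, and all 35 passed the filter on low values, which asked for 1 normalized read or more in 3 or more libraries. RNA was sequenced from HCT-116 cells, an established human colon cancer line, grown in DMEM with fetal bovine serum and labelled wild type. The cells had been made into stable lines with a lentivirus that carried either PMSCV-GOLPH3, meant to overexpress the Golgi protein GOLPH3, or the empty PMSCV-Vector. There were 3 libraries per label, and the titles add a number after the letter P, which was 8, 12 and 13 for the libraries labelled GOLPH3 and 11, 12 and 13 for those labelled Vector. The labels do not say what the P number is, while the methods describe the 3 samples of each line as different generations. Nothing states that they were separate cultures or clones, so p-values measure the spread between these libraries, which may be technical.

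Libraries held 15708846 to 21900764 reads. The targeted transcript itself, GOLPH3, measured 1629.5 (P8), 1272 (P12) and 1383 (P13) normalized reads under the GOLPH3 label and 1892 (P11), 1968 (P12) and 1472 (P13) under the Vector label, a log2 difference of -0.31 with a limma adjusted p of 0.609. The label is therefore used below as a label, since the transcript was not higher under it. Of 14 colon epithelial markers, KRT20 was at 0 and CDX1 at or under 3 reads everywhere, and the summed level of the list was 65971 to 138875 normalized reads under the GOLPH3 label against 31422 to 42282 under the Vector label. Of 9 fibroblast markers, COL1A2, DCN and FAP were at or under 3 reads everywhere, DCN at 0, and the list summed to 825 to 1517 against 488 to 811. A list of 10 genes known from the kidney-derived line HEK293 was written with earlier results of these data known, so its split by label is no independent evidence. None of the 10 was near 0 in every library. The list summed to 142 to 156 normalized reads under GOLPH3 against 6527 to 18294 under Vector. By limma, 9 of the 10 passed an adjusted p of 0.05 as lower under GOLPH3 (4.12% of all genes did), and 1 had a positive difference. HOXD13, IRS4, NEFM and UCHL1 were at 0 reads in every library labelled GOLPH3, and ROBO1 at 0 to 2. By limma, KRT18, KRT19 and ELF3 of the colon list passed an adjusted p of 0.05 as higher under GOLPH3, and PDGFRA of the fibroblast list as lower. PDGFRA had only 0, 1 and 0 reads under GOLPH3 and 5, 7 and 29 under Vector. Of the 6 fibroblast markers tested, 3 had a positive and 3 a negative label difference. The part of these genes in the label differences below was not tested.

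Cells make cholesterol from acetyl-CoA through mevalonate, squalene and lanosterol, and make fatty acids from the same acetyl-CoA through malonyl-CoA. The SREBP transcription factors, made as membrane proteins of the endoplasmic reticulum, switch on the genes of both branches. SCAP carries them to the Golgi apparatus, where proteases release the active part of the protein, and the INSIG proteins hold SCAP back when sterols are plentiful. Liver X receptors (LXR), which sense oxysterols, drive the opposite branch of cholesterol export.

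SREBP is known to act on promoters through sterol regulatory elements and E-boxes, together with factors such as NF-Y. Promoter windows from RefSeq (build GRCh38.p14, 250 bases before each gene's start) were matched for 30 of the 35 genes. ACAT2, FDFT1, SQLE, FASN and ABCG1 were not matched. The CCAAT box, the letters CCAAT that the factor NF-Y binds, was searched on both strands and stood in 21 of the 30 windows (70%), against 37% of all 27305 symbols with a window and 40.2% of the 13459 whose gene was tested here. The sterol regulatory element, searched as TCACNCCAC, was found in SREBF2 alone (3.33% of the 30, against 1.09% of all symbols and 1.16% of those tested). The palindromic E-box CACGTG stood in SCAP, INSIG1, SC5D and ABCA1 (4 of 30, 13.3%, against 7.73% of all symbols and 10.4% of those tested). In the stretches printed below, no marked motifs overlap. For genes with several starts, a match at any start was counted, and a match is a description of letters, not of binding. The stretches below were chosen because SREBF2 holds the classical element, because INSIG1, IDI1, MSMO1 and SCD were among the matched genes whose P12 libraries both lay below all others, and because HMGCS1 and MVD frame the mevalonate branch. Bases inside an annotated exon on the same strand are left out. For SREBF2 and INSIG1 the rest of the window is shown, and for the other 5 genes a stretch of 100 bases around CCAAT boxes. Capitals mark the motif letters (ATTGG is CCAAT on the other strand).
SREBF2, chr22:41832855-41833078, plus strand: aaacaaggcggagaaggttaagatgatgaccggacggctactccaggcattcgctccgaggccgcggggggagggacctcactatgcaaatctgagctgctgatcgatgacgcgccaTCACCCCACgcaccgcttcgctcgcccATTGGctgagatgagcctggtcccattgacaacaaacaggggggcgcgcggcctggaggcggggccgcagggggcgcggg
INSIG1, chr7:155297628-155297775, plus strand: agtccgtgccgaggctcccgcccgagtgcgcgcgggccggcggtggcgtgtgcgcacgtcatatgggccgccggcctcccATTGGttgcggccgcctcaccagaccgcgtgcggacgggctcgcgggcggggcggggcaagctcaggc
IDI1, chr10:1049270-1049369, minus strand: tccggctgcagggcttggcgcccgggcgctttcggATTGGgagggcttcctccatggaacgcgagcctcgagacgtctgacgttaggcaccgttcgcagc
HMGCS1, chr5:43313516-43313615, minus strand: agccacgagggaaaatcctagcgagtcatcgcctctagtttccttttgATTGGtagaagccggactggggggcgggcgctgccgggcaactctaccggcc
MVD, chr16:88663162-88663261, minus strand: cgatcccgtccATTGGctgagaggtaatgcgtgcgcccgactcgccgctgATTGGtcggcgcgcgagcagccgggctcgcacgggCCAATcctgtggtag
MSMO1, chr4:165327459-165327558, plus strand: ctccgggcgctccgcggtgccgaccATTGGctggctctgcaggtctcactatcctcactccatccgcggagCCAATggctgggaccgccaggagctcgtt
SCD, chr10:100346983-100347082, plus strand: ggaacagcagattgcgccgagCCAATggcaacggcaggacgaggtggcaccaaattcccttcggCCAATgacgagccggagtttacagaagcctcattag
The printed SREBF2 stretch holds TCACCCCAC followed by an ATTGG, the MVD stretch holds 3 CCAAT boxes, those of SCD and MSMO1 2 each, and those of INSIG1, IDI1 and HMGCS1 1 each. All 7 matched members whose P12 libraries lay below all others had a CCAAT box at some start, as did 14 of the other 23. The INSIG1 E-box lies in bases that are exonic in GENCODE 29 and is not shown.

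The pathway was transcribed at very unequal levels. Per kilobase of annotated exon, SCD, the desaturase that makes oleate, averaged 5161 normalized reads over the 6 libraries, FASN, the fatty acid synthase, 3387 and ACLY, which supplies cytosolic acetyl-CoA from citrate, 1392. The next were FDFT1 at 743, SREBF1 at 738 and SREBF2 at 724, while the LXR targets ABCG1 at 7.44 and ABCA1 at 4.75, both sterol exporters, were the lowest of the 35. FDFT1, SREBF1 and SREBF2 differed from each other by less than the spread of any of them over the libraries. Strandedness of the libraries was not given in the sources used here, and 83.2% of the exon bases of CYP51A1 and 52.3% of those of ACAT2 are shared with other annotated genes, so reads of these members cannot be told apart from those of their neighbours.

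In many members the P12 pair was on average lower than the other 4 libraries. At P12, in both labels, most members stood below their level in the other libraries of that label. In all, 31 of 35 had a negative log2 difference (P12 pair minus the other 4, with the label in the fit), with a median of -0.62 against 0.02 over the 26536 genes tested. By limma, none of the 35 passed an adjusted p of 0.05, and neither did any other gene (0.00% of those tested in each direction). Without adjustment, 11 members were lower with a p under 0.05 (3.21% of all genes were) and 0 higher (4.02%). In 10 members (28.6%) both P12 libraries lay below all 4 others, against 6.10% of all genes, and in INSIG2 alone both lay above, against 6.74%. Within the libraries labelled GOLPH3, 29 members were lower at P12 than the mean of P8 and P13 (median -0.72), and within those labelled Vector 30 were lower than the mean of P11 and P13 (median -0.53). Lower values in both labels were seen in 27 of 35 members, against 29.1% of all genes. In bulk RNA, less RNA per cell and fewer cells that carry it cannot be told apart.

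**Figure D1:**
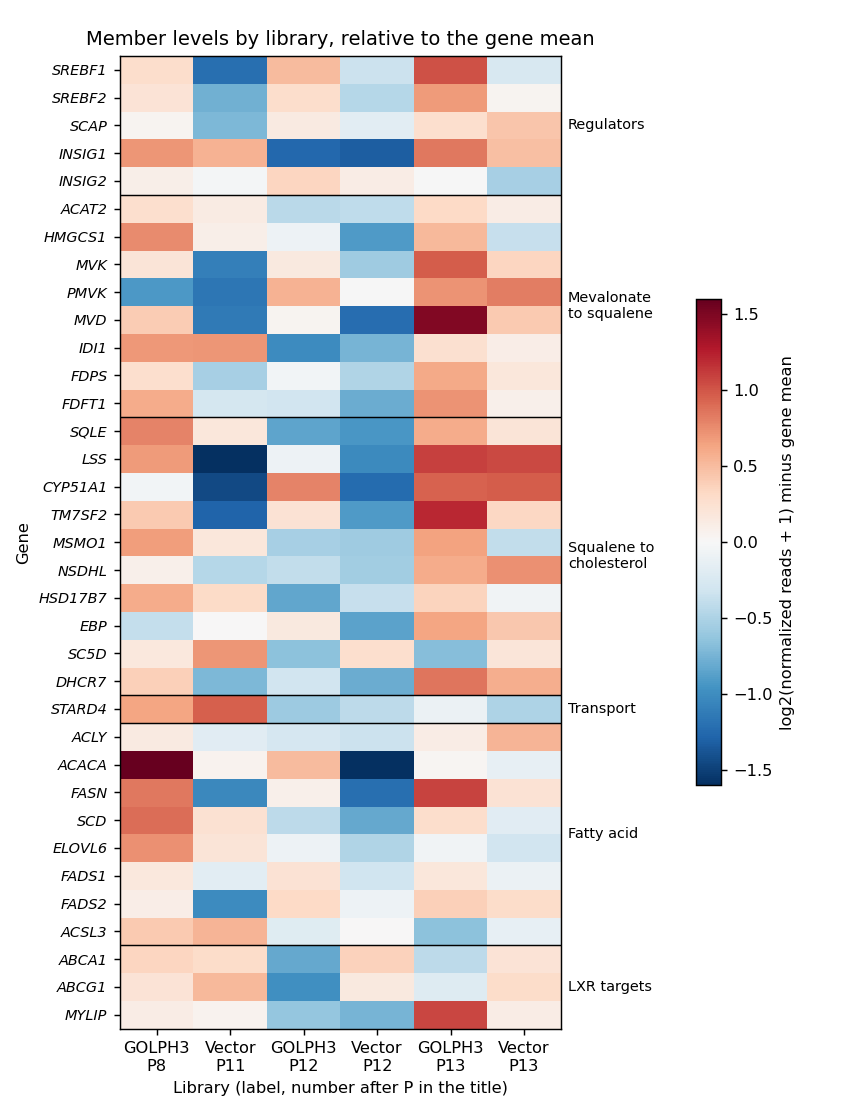
Each cell is the log2(normalized reads + 1) of a gene in a library minus that gene's mean over the 6 libraries, with genes in rows grouped by role and libraries in columns by P number. Colours stop at 1.6 on either side of 0, and INSIG1, IDI1, SQLE, MSMO1, HSD17B7 and SCD are blue in both P12 columns, with INSIG1 the lowest gene of the GOLPH3 column at P12.

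INSIG1, the sterol-regulated anchor of SCAP (chr7:155297776-155310235, plus strand), had the lowest P12 difference of the 35. It had 760.3 normalized reads in the P12 library labelled GOLPH3 and 729.8 in the one labelled Vector, against 2968 and 3266 at P8 and P13 under GOLPH3 and 2669 and 2531 at P11 and P13 under Vector. Both P12 libraries were thus far under the lowest of the others, and the groups did not overlap, with a mean of 745 at P12 against 2859 ± 328 (SD, n = 4). The log2 difference was -1.93 ± 0.27 (SE), a 3.82-fold lower level, with a limma adjusted p of 0.20. Its partner INSIG2, which holds SCAP back in the same way, had 571 and 487 at P12 against 312 to 482 elsewhere, so that its P12 libraries were the highest, by 0.34 ± 0.30 (adjusted p = 0.898). The regulators upstream did not share the pattern of INSIG1. SREBF1, SREBF2 and SCAP had P12 differences of 0.12, -0.13 and -0.03, each smaller than its standard error.

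Between acetyl-CoA and squalene, IDI1, the isopentenyl diphosphate isomerase, was the lowest of its 8 genes at P12. It had 795 and 954 normalized reads there, under GOLPH3 and Vector, against 2579.5 and 1905 at P8 and P13 under GOLPH3 and 2611 and 1715 at P11 and P13 under Vector. Every P12 value was below every other value, and the log2 difference was -1.31 ± 0.31 (adjusted p = 0.340). FDFT1, the squalene synthase (chr8:11795573-11839309), had 2916 and 2081 at P12 against 2968 to 5941 elsewhere, so the GOLPH3 value at P12 lay just under the Vector value at P11, and its difference was -0.83 ± 0.28 (adjusted p = 0.533). ACAT2, which condenses acetyl-CoA, had 567 and 573 at P12 against 827 to 952, a difference of -0.63 ± 0.28 (adjusted p = 0.669). HMGCS1, the cytosolic HMG-CoA synthase, overlapped across labels: it had 2111 and 1193 at P12, against 3771 and 3218 under GOLPH3 and 2381 and 1728 under Vector, and differed by -0.72 within GOLPH3 and -0.76 within Vector. MVD, the mevalonate diphosphate decarboxylase, was likewise lower at P12 within both labels, at -0.90 and -0.86, with 1657 and 689 at P12 and 734 to 4465 elsewhere. MVK, the mevalonate kinase, and FDPS, the farnesyl diphosphate synthase, had differences of -0.32 ± 0.42 and -0.39 ± 0.31. PMVK, the phosphomevalonate kinase, was the exception in the branch, with 0.41 ± 0.58 and P12 values of 375 and 254 inside the range of 114 to 451 of the others.

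From squalene to cholesterol, all 10 genes had a negative P12 difference, with a median of -0.77 and a range from -1.34 to -0.29. SQLE, the squalene epoxidase that is a rate-limiting step of this branch (chr8:124998497-125022283), had 811 and 761 normalized reads at P12 under GOLPH3 and Vector. The values were 2538 at P8 and 2208 at P13 under GOLPH3, and 1649.8 at P11 and 1679 at P13 under Vector. Both P12 values were under the lowest of the others, and the log2 difference was -1.34 ± 0.28 (adjusted p = 0.237). MSMO1, the C4-methylsterol oxidase, had 1044 and 1019 at P12 against 1143 to 2403, a difference of -0.82 ± 0.31 (adjusted p = 0.613), and its higher P12 value lay close under the Vector value at P13. HSD17B7, a 3-ketosteroid reductase, had 210.3 and 290.3 at P12 against 362 to 569, a difference of -0.90 ± 0.33. The other genes overlapped. LSS, the lanosterol synthase, NSDHL, a sterol dehydrogenase, and DHCR7, which makes cholesterol from 7-dehydrocholesterol, were between -0.83 and -0.71, and each was lower at P12 within both labels. CYP51A1, the lanosterol demethylase, and EBP, the sterol isomerase, were lower within Vector (-0.99 and -1.08) but not within GOLPH3 (0.34 and 0.04). TM7SF2, a sterol reductase, and SC5D, a sterol desaturase, had differences of -0.51 ± 0.46 and -0.29 ± 0.33. STARD4, which ferries cholesterol between membranes, had 883 and 985 at P12 against 942 to 2577 elsewhere, a difference of -0.75 ± 0.41.

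**Figure D2:**
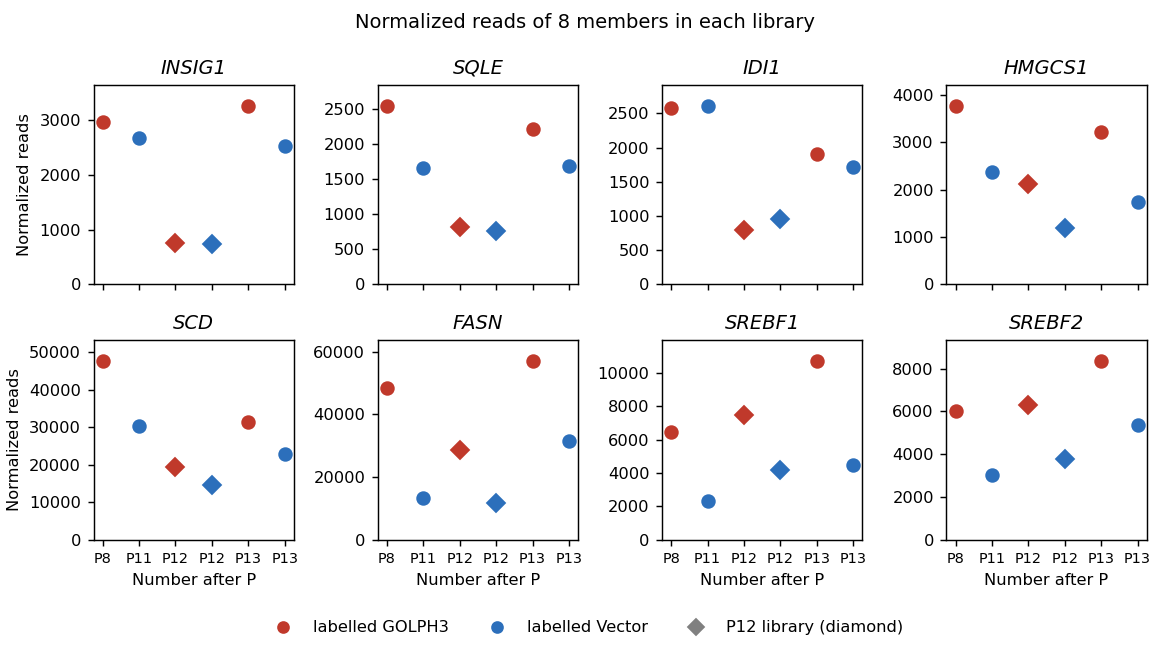
Normalized reads (linear axis from 0) of 8 members are plotted for each library, ordered by the number after P, with colour for the label and diamonds for P12. INSIG1, SQLE, IDI1 and SCD have both diamonds under every circle, while SREBF1 and SREBF2 separate by colour instead, with every value labelled GOLPH3 above every value labelled Vector.

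In the fatty acid branch the P12 difference was smaller, with a median of -0.45 over 8 genes. SCD had 19298 and 14587 normalized reads at P12 under GOLPH3 and Vector, against 47626 and 31317 under GOLPH3 and 30402 and 22802 under Vector. Its P12 pair was below all others, and the difference was -0.93 ± 0.34 (adjusted p = 0.581). ACLY had 5867 and 5573 against 6269.6 to 10327, also without overlap, a difference of -0.47 ± 0.31. FASN had 28605 and 11648 at P12, where the first was above the Vector value of 13230.5 at P11, and a difference of -0.84 ± 0.39. ACACA, the acetyl-CoA carboxylase that makes malonyl-CoA, had 382 and 54.6 at P12 and 246 to 947 elsewhere, so the size of its difference, -1.33 ± 0.54, came mainly from the Vector library at P12. The polyunsaturated desaturases FADS1 and FADS2, the elongase ELOVL6 and the acyl-CoA synthetase ACSL3 lay between -0.43 and 0.18, with standard errors of 0.27 to 0.39. Among the LXR targets, MYLIP, the ubiquitin ligase that removes lipoprotein receptors, had 183 and 168 at P12 against 293 to 590.3, a difference of -1.02 ± 0.36. ABCA1 and ABCG1 had -0.33 and -0.62 at 21.4 to 66.9 normalized reads.

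For a single gene, the exact permutation test over the 15 ways to choose 2 of 6 libraries cannot go below 0.0667, and INSIG1, SQLE, IDI1, ACAT2, HSD17B7, SCD and MYLIP reached that value (two-sided). The share of all genes that reach it was not computed, so this list has no baseline. The adjusted calls differed between fits, and why they differed was not tested. When a term for the P13 pair was added, an alternative chosen after seeing the data, 13 members passed as lower and 0 as higher, against 1.42% and 2.62% of all genes, namely INSIG1, IDI1, SQLE, MVD, SCD, FDFT1, HMGCS1, DHCR7, MYLIP, STARD4, MSMO1, HSD17B7 and FASN. With deviations corrected for transcript GC content, also chosen afterwards, INSIG1, IDI1, SQLE, MVD, FDFT1, DHCR7 and SCD passed as lower, against 0.645% of all genes, and 0 as higher, against 1.23%. DESeq2 on the recovered reads called 3 members lower (0.157% of all genes) and edgeR 0 (0.00%). A list of 9 genes of the amino acid stress response, chosen with earlier results of these data known, differed in the same libraries. It summed to 51140 and 37666 normalized reads at P12 against 8679 to 23768 elsewhere. All 9 had a positive P12 difference, as did 13673 of all 26536 genes. By limma, 8 of them were higher at an unadjusted p under 0.05, against 4.02% of all genes. The part of that response in the result was not tested.

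**Figure D3:**
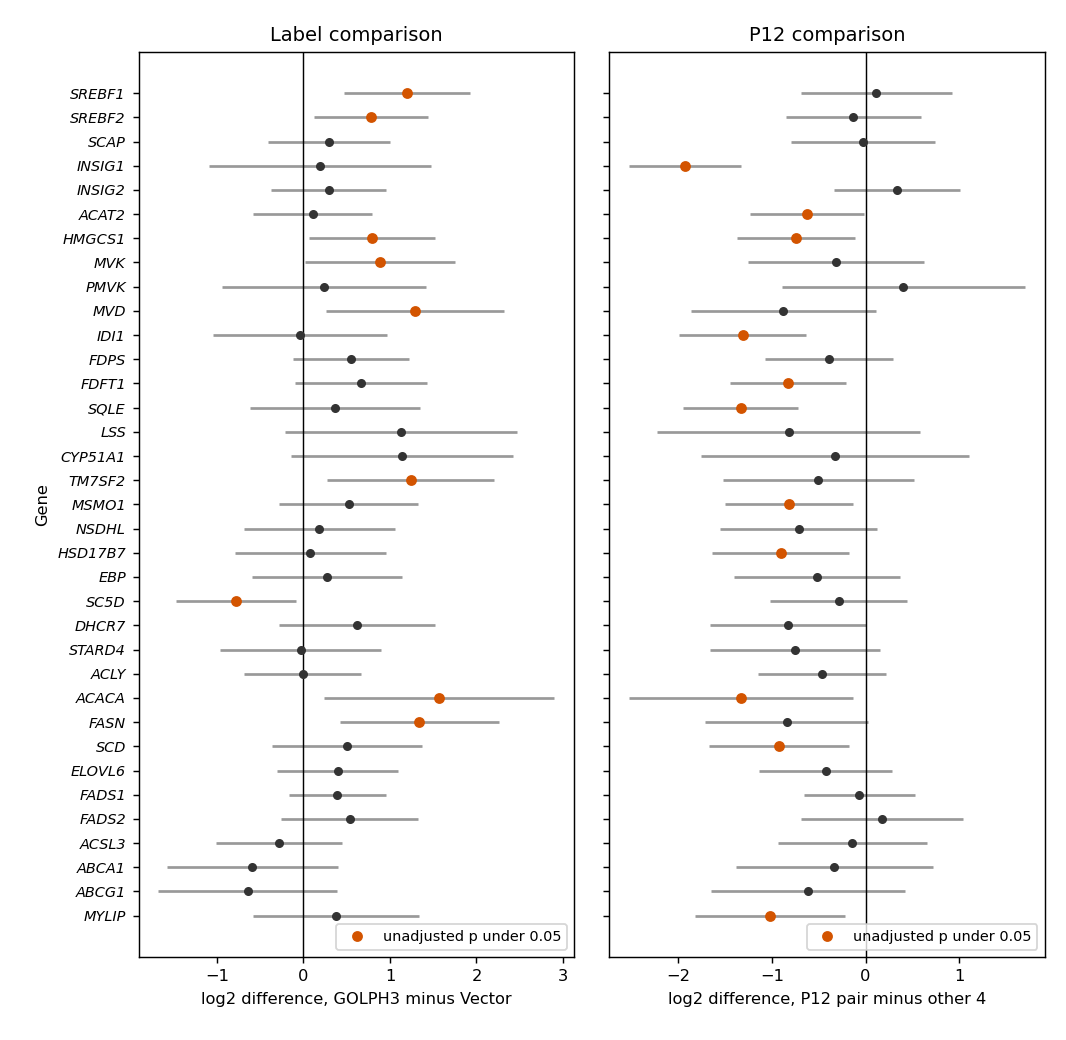
Points are limma log2 differences of the 35 members, bars their 95% confidence intervals, with orange for an unadjusted p under 0.05. In the left panel (GOLPH3 minus Vector) 28 of 35 points lie right of 0, and in the right panel (P12 pair minus the other 4) 31 of 35 lie left of 0, with INSIG1 the lowest at -1.93.

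The label comparison asked how the pathway differed between the GOLPH3 and Vector lines. Most members were higher under the GOLPH3 label, with 28 positive of 35 and a median of 0.39 against 0.02 over all genes. By limma, 0 members passed an adjusted p of 0.05 in either direction, against 0.953% of all genes higher and 4.12% lower. With no adjustment, a p under 0.05 was reached by 8 higher members (7.51% of all genes) and 1 lower member (10.1%). Values of the 2 labels did not overlap for SREBF1, SREBF2 and FADS1, all higher (8.57% of members, 9.20% of all genes), and for SC5D, lower (2.86%, against 12.8%), so that the share of members that separated was not above that of all genes. The direction was positive in 27 of 35 within the P12 pair, in 26 within the P13 pair and in 29 between P8 and P11, where 50.02%, 47.9% and 47.4% of all genes were higher.

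SREBF1, the SREBP that mainly drives fatty acid genes (chr17:17810399-17837002), measured 6439.7 at P8, 7502 at P12 and 10696 at P13 under the GOLPH3 label, and 2295 at P11, 4155 at P12 and 4447 at P13 under the Vector label, in normalized reads. The lowest GOLPH3 value was above the highest Vector value, the log2 difference was 1.20 ± 0.33 (SE), and the limma adjusted p was 0.0643. SREBF2, the SREBP that mainly drives cholesterol genes, had 6011, 6294 and 8338 against 3040.0, 3787 and 5356, a difference of 0.78 ± 0.30 (adjusted p = 0.190), again without overlap. With 3 against 3 libraries the exact permutation test cannot go below 0.1, which SREBF1, SREBF2, FADS1 and SC5D reached (two-sided). Any gene whose labels do not overlap reaches that value, and 9.20% of all genes were higher and 12.8% lower without overlap. FASN had 48432, 28605 and 56873 against 13230.5, 11648 and 31532.5, a difference of 1.34 ± 0.42 (adjusted p = 0.103), and its P12 value under GOLPH3 was below the P13 value under Vector. ACACA had the largest difference, 1.57 ± 0.61, with single values of 947 at P8 under GOLPH3 and 54.6 at P12 under Vector and the other 4 between 246 and 382. MVD, TM7SF2, MVK and HMGCS1 had differences of 1.29, 1.24, 0.88 and 0.79, each at an unadjusted p under 0.05 and an adjusted p of at least 0.155. SC5D, with 1415, 797 and 778 against 2037, 1512 and 1432, was at -0.78 ± 0.32 (adjusted p = 0.223).

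For INSIG1, SQLE, IDI1 and ACAT2, all low at P12, the label difference was smaller than its standard error. They had label differences of 0.19 ± 0.59, 0.37 ± 0.45, -0.04 ± 0.46 and 0.11 ± 0.32, and the 95% intervals of INSIG1 (-1.09 to 1.47) and IDI1 (-1.05 to 0.96) both spanned 0. That fit held no P12 term, so the spread between P12 and the other libraries counts in these standard errors. Across the 3 pairs (P12, P13, and P8 with P11), 21 of the 35 members were higher under GOLPH3 in every pair (60%, against 24.2% of all genes). SREBF1, SREBF2, MVD, TM7SF2, MVK, FASN, HMGCS1 and FDFT1 were among them, with FASN at 1.30, 0.85 and 1.87 and HMGCS1 at 0.82, 0.90 and 0.66. INSIG1 (0.06, 0.37 and 0.15) and SQLE (0.09, 0.39 and 0.62) were also among the 21, while IDI1 and ACAT2 were not. The 3 that were lower in every pair were SC5D, ACSL3 and ABCG1 (8.57%, against 26.0%). With the P number as a block, a fit that leaves 1 residual degree of freedom and takes the label difference from the P12 and P13 pairs alone, since P8 and P11 hold 1 library each, 12 members passed an adjusted p of 0.05 as higher and 1 as lower, against 9.93% and 13% of all genes in that fit. Removing Vector replicate 3, the P13 library, raised the members called as higher from 0 to 2, against 0.537% of all genes in that fit. The interaction of label and P12 gave an adjusted p under 0.05 for 0 of the 35 members by limma (0.00% of all genes) and an unadjusted p under 0.05 for 0 of them, and neither edgeR nor DESeq2 called a member. A difference between the labels in their P12 pattern was thus not detected. The 95% intervals were wide, such as -0.93 to 4.57 for ACACA and -2.39 to 5.05 for CYP51A1, so large differences could be missed.

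The P13 pair, set against the P8 and P11 libraries, showed another arrangement, with some steps of the same pathway higher and others lower. By limma, 11 members passed as higher (10.0% of all genes did) and 4 as lower (6.84%), with a median of 0.25 over the 35 against 0.06 over all genes. Without adjustment a p under 0.05 was reached by 15 higher and 6 lower members (16.9% and 13% of all genes). Both P13 values lay above P8 and P11 in 10 members (28.6%, against 21.6% of all genes) and below them in 6 (17.1%, against 22.8%). The higher members were SREBF1, SREBF2, SCAP, MVK, PMVK, MVD, LSS, CYP51A1, TM7SF2, NSDHL and DHCR7, from 0.64 for SREBF2 to 1.80 for PMVK. Those that passed as lower were SC5D, STARD4, ELOVL6 and ACSL3, from -1.09 for STARD4 to -0.65 for ELOVL6. SC5D overlapped too, with 1432 at P13 under Vector against 1415 at P8 under GOLPH3. PMVK had 422 and 451 normalized reads at P13, under GOLPH3 and Vector, against 135 at P8 and 114 at P11, a log2 difference with an adjusted p of 0.00218. MVD had 4465 and 2136 at P13 against 2129 at P8 and 734 at P11, so that the lower P13 value lay just above the P8 value. STARD4 had 1238 and 942 against 2045 and 2577. The 5 members lowest at P12, INSIG1, SQLE, ACACA, IDI1 and MYLIP, had P13 differences of 0.03, -0.09, -0.98, -0.52 and 0.50, none with an adjusted p under 0.05. The P13 calls rested on the label term and on single libraries: without the label term 0 members were called (0.00% of all genes), and without Vector replicate 3, itself a P13 library, 3 higher and 2 lower (4.54% and 3.61% of all genes). The 9 amino acid stress genes moved with P13 too, with a median of 1.38, 7 of them passing as higher and sums of 23768 and 18280 normalized reads against 11920 at P8 and 8679 at P11, and their part in the result was not tested.

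These P13 differences ran with the base composition of the transcripts. Over the 25890 genes with a transcript in GENCODE 29, the Spearman correlation of the P13 difference with transcript GC content was 0.59, and over the 35 members 0.75, given as a description because genes share libraries. The median difference of all genes went from -0.71 in the tenth of genes with the lowest GC content to 1.05 in the highest. The 11 higher members had a median GC content of 59.4% (41.5% to 65.6%) and the 4 lower ones 38.4% (34.2% to 41.2%). With the GC correction, chosen after seeing the data, 1 member was called as higher (0.622% of all genes) and 0 as lower (0.0463%), namely CYP51A1 at 2.21, most of whose exon bases overlap other genes, and calls over all genes went from 4474 to 173. Under that correction 11 of the 35 P13 directions turned. They included SREBF1 and SCAP, both called before, at -0.21 and -0.22, and 9 that were not called, such as FASN (0.74 to -0.35), INSIG2 (-0.30 to 0.44) and FADS2 (0.79 to -0.01). The same correlation for the P12 difference was 0.02 over all genes and 0.16 over the members, and for the label difference 0.36 and 0.49. With the correction, the label comparison called 1 member as higher, HMGCS1 (1.11, adjusted p = 0.0369), and 0 as lower, against 1.13% and 5.14% of all genes. The label differences of several GC-rich members were smaller with it: SREBF1 went from 1.20 to 0.55, SREBF2 from 0.78 to 0.42, FASN from 1.34 to 0.66, MVD from 1.29 to 0.60 and TM7SF2 from 1.24 to 0.70. FADS2 went from 0.54 to 0.05 and SCAP from 0.30 to -0.26, 1 of 5 uncalled members that turned, while ACACA was at 1.57 before and 1.56 after.

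**Figure D4:**
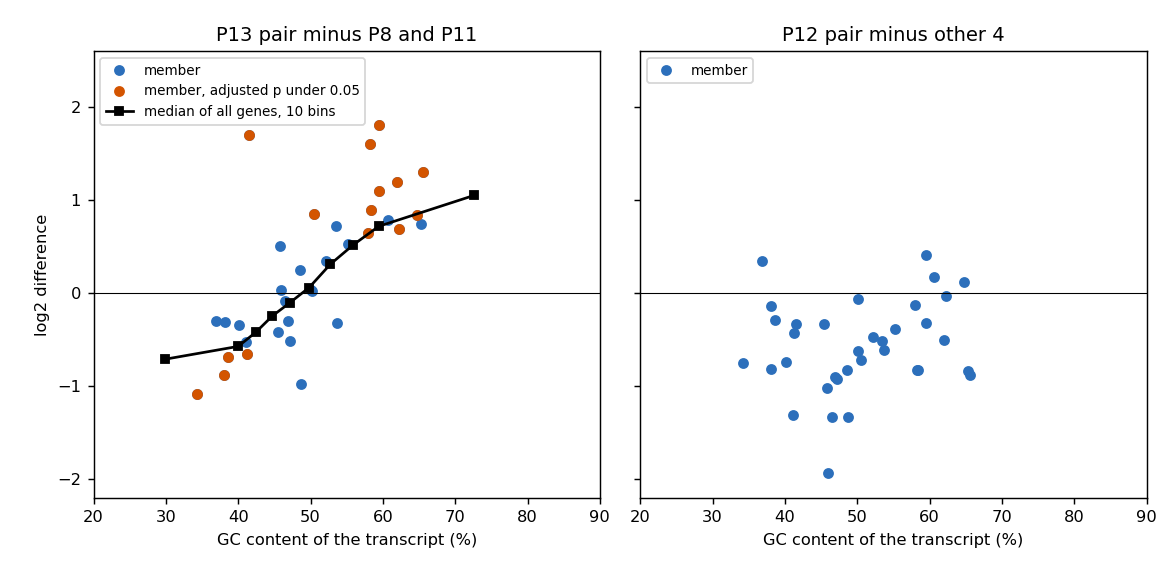
Log2 differences of the 35 members are plotted against the GC content of their transcript (percent), at left for the P13 pair against P8 and P11 and at right for the P12 pair against the other 4. At left the black line is the median of all genes in 10 GC bins with equal numbers of genes, and it goes from -0.71 to 1.05. The members rise with GC content there too (Spearman 0.75), though CYP51A1 (1.70) lies far above the line and ACACA (-0.98) far below. Orange marks an adjusted p under 0.05. At right the members show no such slope (Spearman 0.16).

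Other genes of the pathway, in lists chosen with earlier results known, are given by their counts. Over all genes, 4.02% were higher and 3.21% lower at P12 with an unadjusted limma p under 0.05. Of 20 further sterol genes tested, 2 were higher and 2 lower by that rule, with a median P12 difference of -0.12. Of 17 genes of SREBP processing and sterol sensing, 0 were higher and 1 lower (median -0.11), and of 27 further fatty acid genes 1 was higher and 1 lower (median -0.08). None of the 3 lists had a member with an adjusted p under 0.05 in that comparison. In the label comparison 1 of these genes passed, VLDLR, a lipoprotein receptor. It had 6.44, 7.42 and 3.20 normalized reads under the GOLPH3 label (6, 9 and 3 reads) and 38.3, 116 and 118 under Vector, a log2 difference of -3.68 ± 0.60 (adjusted p = 0.00250).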

How the data were processed

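The deposited table of signal values holds 1 value per gene and library. The submitters' notes name fastp 0.20.0, HISAT2 2.1.0, Cufflinks, featureCounts 1.6.1, DESeq2 and GRCh38. All values (100%, within 0.01 reads or, for larger values, a relative 0.0001) were whole multiples of 1 step per library, so the authors' values are reads divided by a size factor, called normalized reads here, with no correction for length. Among the fits, only edgeR 4.0.16 and DESeq2 1.42.0, run as alternatives, used the values recovered as reads. The library totals, the chi-square values below and the read counts given for single genes also came from them. Libraries of a label differed beyond sampling noise (chi-square per degree of freedom of at least 65.3). The 44 second entries of an identifier were summed. limma 3.58.1 in R 4.3.3 was fitted to log2(value + 1), a scale that understates changes of low genes. Genes with 1 or more normalized reads in 3 or more libraries were used, with Benjamini-Hochberg adjustment over all 26536 genes. The fits were also run on simulated reads with known changes. Apart from those changes, the simulated libraries differed only by depth and random noise. They therefore do not show how the adjustment performs on these data. Fitted were the label, P12 with the label, P13 against P8 and P11 with both, and the interaction of label and P12. Coordinates, exon lengths and GC content came from GENCODE 29 (GRCh38), which held 96.4% of identifiers. Alternatives were another pseudocount, stricter and no filter, quantile normalization, blocks, leaving out each library and, added afterwards, a P13 term and a GC correction. Members and gene lists were chosen with earlier results of these data known. Named were all 35 members and, from the other lists, up to 5 genes with the smallest p among those past an adjusted p of 0.05, while markers named as near 0 were picked after their values were seen. At 3 reads or fewer a gene is treated as not measured, and depth limits cover counting error only.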

Additional observations from a re-analysis of the deposited data

How the results depend on the processing

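In the label comparison the number of members called, 0, became 1 with DESeq2, 1 with the replicate block, 1 with the GC correction and 13 when libraries were blocked by P number (5.48%, 4.07%, 6.27% and 22.9% of all genes), and those at an unadjusted p under 0.05, 9, became 18 with the latter. Leaving out 1 library gave 0 to 2 called, 2 to 13 at an unadjusted p and a median of 0.29 to 0.71, the last without GOLPH3 replicate 2, the P12 library. At an unadjusted p, 3 were left without GOLPH3 replicate 3, 2 without Vector replicate 1 and 5 without Vector replicate 2, and 2 were called without Vector replicate 3. In the P12 comparison the members called, 0, became 3 with DESeq2, 15 with the replicate block (1 of them higher), 13 with the P13 term and 7 with the GC correction (0.550%, 14.5%, 4.04% and 1.88% of all genes), and those at an unadjusted p, 11, became 18, 20 and 20 with the last 3. Leaving out 1 library gave 0 to 0 called, 3 to 15 at an unadjusted p and a median of -0.72 to -0.47. The fewest, 3, came without GOLPH3 replicate 2, which leaves 1 library at P12 that is assumed to vary like the others, 5 came without Vector replicate 1 and 7 without GOLPH3 replicate 1. In the P13 comparison the members called, 15, became 9 with quantile normalization, 0 without the label term and 1 with the GC correction (13.9%, 0.00% and 0.668% of all genes), those at an unadjusted p, 21, became 4 and 6 with the last 2, and the median became 0.082 with the GC correction. There 11 members turned direction, of which SREBF1 and SCAP had been called (-0.21 and -0.22). Leaving out 1 library gave 5 to 16 called, 14 to 22 at an unadjusted p and a median of 0.088 to 0.25, the fewest without Vector replicate 3 (5) and Vector replicate 2 (9). The cause of these moves was not tested. Replicate numbers did not pair the libraries: deviations of same-numbered libraries correlated at -0.23, -0.15 and 0.26, the last being the P13 pair. Each pair that shares a P number had 0.26. The highest value, 0.33, was that of GOLPH3 at P8 with Vector at P11, which share neither number. A replicate block could not be fitted for P13, whose 2 libraries are both replicate 3. At 15708846 reads or more, depth limits mainly ABCA1 and ABCG1.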
